A study of Rattus norvegicus with 23 samples.

Results

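The genes described here are 10 genes of antigen presentation on major histocompatibility complex (MHC) class II, out of 14217 rat genes measured on 23 Affymetrix arrays. They were taken by name, and a probe set counted only where a member was its single gene. These 10 genes had 16 such probe sets, with more than 1 for RT1-Ba, RT1-Bb, Ciita and Cd86, and each gene was read from its brightest probe set, judged by the mean of the 23 arrays. No gene was left out for low values. In build GRCr8 of the rat genome, by RefSeq positions, the chain and chaperone genes lie together on chromosome 20, from RT1-Da (chr20:4515393-4520387) through RT1-Ba (chr20:4577057-4581650), RT1-Bb (chr20:4598475-4604118) and RT1-DMb (chr20:4695009-4702560) to RT1-DMa (chr20:4708932-4712335). Cd80 (chr11:75760073-75798978) and Cd86 (chr11:77647565-77706178) are both on chromosome 11, and Ctss (chr2:185775316-185803440), Ciita (chr10:5646854-5694393) and Cd74 (chr18:56527071-56536406) lie on their own.

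MHC class II molecules are cell surface heterodimers of an alpha and a beta chain that show peptides from the endosomes to CD4+ T cells. In the rat the chains are encoded by the RT1-D and RT1-B genes, and RT1-DMa with RT1-DMb forms the endosomal chaperone that exchanges the invariant chain peptide for antigen. The invariant chain itself is Cd74, which cathepsin S (Ctss) trims, while Ciita is the coactivator that sets class II transcription, and Cd80 and Cd86 are the costimulatory ligands that T cells read together with the peptide. In the liver the pathway is known from Kupffer cells (KCs, the resident macrophages), dendritic cells and, at a lower level, liver sinusoidal endothelial cells (LSECs), and hepatocytes carry little of it at rest.

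The study asked how liver cells behave in layered cultures that hold more than 1 hepatic cell type. Hepatocytes and LSECs were isolated from female Lewis rats, and rat KCs were bought as cryopreserved cells. Hepatocytes at day 12 came from monolayers (HM), from a collagen sandwich (CS), from a 3D model with LSECs across a chitosan and hyaluronic acid membrane (3DHL), or from the same model with KCs added (3DHLK), with 3 arrays in each group. LSECs at day 12 came from both 3D models with 3 arrays each. KCs of the 3DHLK model at day 12 had 2 arrays because only 2 passed the authors' RNA quality check. KCs at day 3 were monocultures, labelled as before the 3D model, and had 3 arrays. By the paper, KCs were maintained in a medium of their own and the multicellular cultures in hepatocyte medium. Comparisons with day 3 KCs thus also differ in day, culture conditions or source of the cells. These cannot be told apart from cell type or 3D culture. The cell types of the 3D models were separated 1 after the other with magnetic beads against SE-1, for LSECs, and CD163, for KCs. No treatment was given to any group. The labels do not say which arrays share an animal or a culture, so the p-values measure only the spread between these arrays, and in such bulk samples fewer cells of a type and less RNA per cell cannot be told apart.

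The labels were checked against 19 macrophage and 18 hepatocyte markers, and the arrays labelled as KCs of the 3DHLK model did not carry the level of the first. The mean log2 value of the macrophage markers was 12.07 in day 3 KCs and 6.94 in this KC fraction, against 6.88 in HM. The hepatocyte markers averaged 7.52 in day 3 KCs and 12.76 in the KC fraction. Adgre1, the gene of the F4/80 antigen, read 13.0, 12.84 and 12.9 in day 3 KCs but 4.81 and 5.95 in the KC fraction. The LSEC fractions also had hepatocyte marker means of 13.33 and 13.59, and their endothelial marker means of 6.26 and 6.37 were near those of hepatocytes (6.25 in 3DHL and 6.66 in 3DHLK). In the 3DHLK hepatocytes, Eif2s3y, a gene of the Y chromosome, read 8.46, 8.18 and 8.19, while the arrays of the other day 12 groups lay between 3.39 and 3.56 and day 3 KCs between 8.36 and 9.56. Xist, the other sex gene measured, averaged 4.38 in day 3 KCs, 10.15 in the KC fraction and 10.11 to 11.81 in the other day 12 groups. The groups are named by their labels below, with these values in view.

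The promoters of 5 class II genes are shown because all were high in day 3 KCs and share an arrangement of letters there. Of the 10 genes, 8 have a promoter window in the RefSeq table of build GRCr8, which covers 250 bases before to 50 after a start site. The letters searched, on both strands, were GNNACNG for the X box core and TGATTGG for the Y box, the site of NF-Y, with X placed 15 to 30 bases before Y. They were chosen after these windows had been read. In 4 of these genes and in RT1-Db1, the beta chain that pairs with RT1-Da, X and Y lay 23 or 24 bases apart, and both are in capitals.

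RT1-Da, chr20:4515325-4515376, plus strand: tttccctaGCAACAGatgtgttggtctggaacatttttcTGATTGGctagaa

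RT1-Ba, chr20:4576973-4577024, plus strand: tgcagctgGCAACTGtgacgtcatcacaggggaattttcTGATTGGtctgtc

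RT1-Bb, chr20:4604169-4604219, minus strand: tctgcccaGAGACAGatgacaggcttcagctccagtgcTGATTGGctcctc

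RT1-DMa, chr20:4712389-4712440, minus strand: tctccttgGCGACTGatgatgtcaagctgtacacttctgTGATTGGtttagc

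RT1-Db1, chr20:4560232-4560282, minus strand: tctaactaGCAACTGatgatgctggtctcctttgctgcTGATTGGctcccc

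The pair was found in 153 of 33469 promoter windows of the table (0.457%), the Y letters alone in 7.06% and the loose X letters alone in 88.1%. Counted from the start site of the window, the Y boxes of these 5 genes began at positions -82 to -45. RT1-Ba also holds TGACGTCA, the palindromic site of CREB family factors, directly after its X box, letters found in 1.83% of the windows. No such pair was found with these letters in the windows of Cd74, Ctss, Cd86 or Cd80. The window of Ctss holds the core of the interferon-stimulated response element, GAAA, any 2 bases and GAAA, from position -36. Letters of this kind are in 3.92% of windows. It is shown because Ctss had a pattern of its own, with the element in capitals.

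Ctss, chr2:185775345-185775384, plus strand: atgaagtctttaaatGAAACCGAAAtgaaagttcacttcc

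The same element lies on the reverse strand in 1 of 2 windows of Cd80, and TTCNNNGAA, a STAT site found in 8.87% of windows, in the other. These matches describe letters and were not tested for binding.

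**Figure D1:**
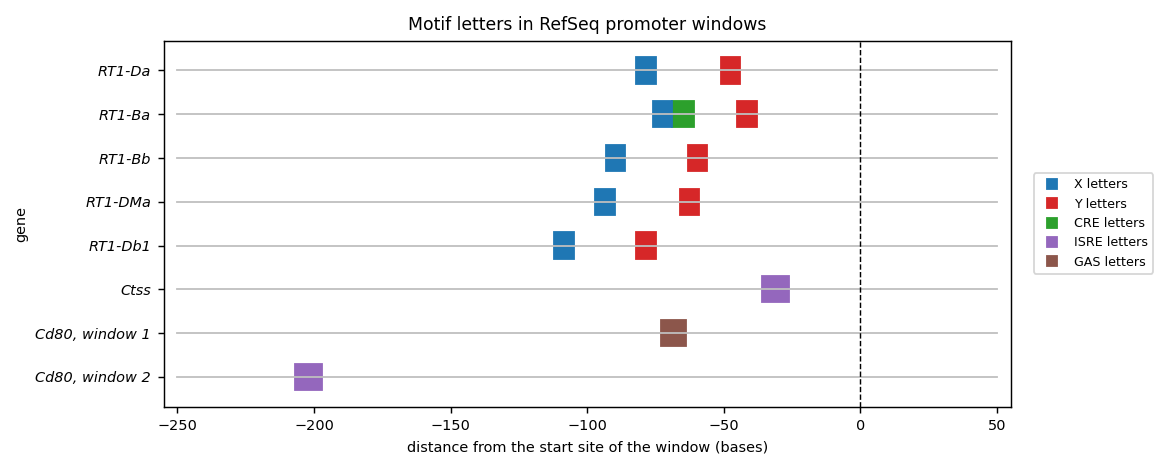
Positions of the searched letters in RefSeq promoter windows, as distance in bases from the start site of the window (dashed line), with 1 line per window and a coloured box per match. The X and Y boxes of the 5 class II genes lie between positions -112 and -39, and Ctss has no such pair.

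Day 3 KCs stood apart from every other group in 8 of the 10 genes. Their 3 arrays lay above all 20 other arrays for Cd74, Ctss, RT1-Da, RT1-Ba, RT1-Bb, RT1-DMb, Cd86 and Cd80, with gaps to the highest other array of 1.01 (Cd80) to 4.5 (Cd74) on the log2 scale. RT1-DMa and Ciita were the exceptions. Against HM, the plain hepatocyte monolayer, limma with Benjamini-Hochberg adjustment called all 10 genes higher in day 3 KCs, where 25.4% of all genes were called higher, 44.7% lower and 70.2% in either direction. In 9 of them, all but Ciita, every day 3 array lay above every HM array, and 23.8% of all genes were higher without overlap. The median difference was 3.75 for the 10 genes and -0.222 for all genes. Of all genes called 36.2% were higher, and 45.0% after cyclic loess or 53.9% after centring on housekeeping genes, which turned the median over all genes to 0.101.

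The invariant chain had the largest difference from HM among the 10 genes. Cd74 read 11.49, 12.96 and 13.13 in day 3 KCs and 6.36, 6.42 and 6.30 in HM. In the other 17 arrays it lay between 5.96 and 7.0, so that no group approached the day 3 KCs, whose own arrays spread widely. The difference from HM was 6.17 (SE 0.26), a 71.8-fold ratio, with an adjusted p of 2.49e-15 in limma.

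The classical chains followed the same order. RT1-Da, the alpha chain of the RT1-D molecule, read 11.79, 10.84 and 11.31 in day 3 KCs and 6.06, 6.17 and 6.09 in HM. RT1-Ba, the alpha chain of RT1-B, read 11.43, 11.04 and 11.15 against 6.45, 5.94 and 6.33, and its partner RT1-Bb read 9.62, 10.25 and 11.21 against 6.67, 6.94 and 6.66. None of these ranges overlapped. The differences were 5.21 (SE 0.19), 4.97 (SE 0.19) and 3.6 (SE 0.23), and limma gave adjusted p-values of 3.52e-16, 5.48e-16 and 4.66e-12. RT1-Db1, the only other class II chain with a probe set of its own here, behaved like them, with means of 11.55 in day 3 KCs and 7.59 in HM.

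RT1-DMb, the beta chain of the chaperone, read 11.95, 11.42 and 11.47 in day 3 KCs and 8.11, 8.36 and 8.18 in HM. Its difference was 3.39 (SE 0.15), against 1.86 (SE 0.16) for RT1-DMa, which read 10.28, 9.77 and 10.22 in day 3 KCs and 8.35, 8.11 and 8.22 in HM. Ctss differed by 5.35 (SE 0.37), and its arrays in both groups are given below.

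The 3 further probe sets of RT1-Ba and the second of RT1-Bb gave the same order with smaller or similar steps. In day 3 KCs they averaged 8.39, 8.36 and 8.95 for RT1-Ba and 8.83 for RT1-Bb, and their highest mean in any other group was 7.16, 6.83, 4.91 and 5.60. Probe sets differ in how well they bind, so these levels are not compared with each other.

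Costimulation was high in the same cells. Cd86 read 10.57, 9.83 and 9.90 in day 3 KCs and 6.29, 6.12 and 6.19 in HM, a difference of 3.90 (SE 0.16, limma adjusted p 1.68e-15). Cd80 read 8.33, 7.61 and 7.67 against 5.99, 5.94 and 5.79, a difference of 1.96 (SE 0.18, adjusted p 2.30e-09). Neither gene overlapped with HM. The second probe set of Cd86 read 10.14, 9.11 and 9.84 in day 3 KCs and at most 5.81 elsewhere.

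Ciita, the class II coactivator, differed little between day 3 KCs and HM on its brightest probe set, but its 2 probe sets did not behave alike. The brightest read 6.06, 6.6 and 6.82 in day 3 KCs and 6.20, 6.07 and 5.92 in HM, with overlapping ranges. Its 8 group means spanned only 5.76 in 3DHLK hepatocytes to 6.6 in 3DHLK LSECs, and neighbours in that order overlapped throughout. The difference from HM was 0.43 (SE 0.19, limma adjusted p 0.0484), and the call was lost without HM replicate 2 (0.43) or 3 (0.35), without day 3 KC replicate 2 (0.37) or 3 (0.26), and in 4 other alternatives, among them cyclic loess (0.02). The second Ciita probe set read 6.53, 7.09 and 7.05 in day 3 KCs and 5.96, 5.96 and 5.90 in HM, higher without overlap.

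Of 9 further transcription factors linked to class II, 1 was called higher in day 3 KCs than in HM and 3 were called lower. Over all genes 25.4% were called higher and 44.7% lower, so these counts do not set the factors apart. The higher one was Irf8, and the lower ones were Rfx5, Nfya and Nfyb. Irf8, an interferon regulatory factor of macrophages and dendritic cells, averaged 11.47 in day 3 KCs and 6.90 in HM. Rfx5, the DNA-binding subunit of the RFX complex on the X box, averaged 7.76 in day 3 KCs and 9.19 in HM.

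**Figure D2:**
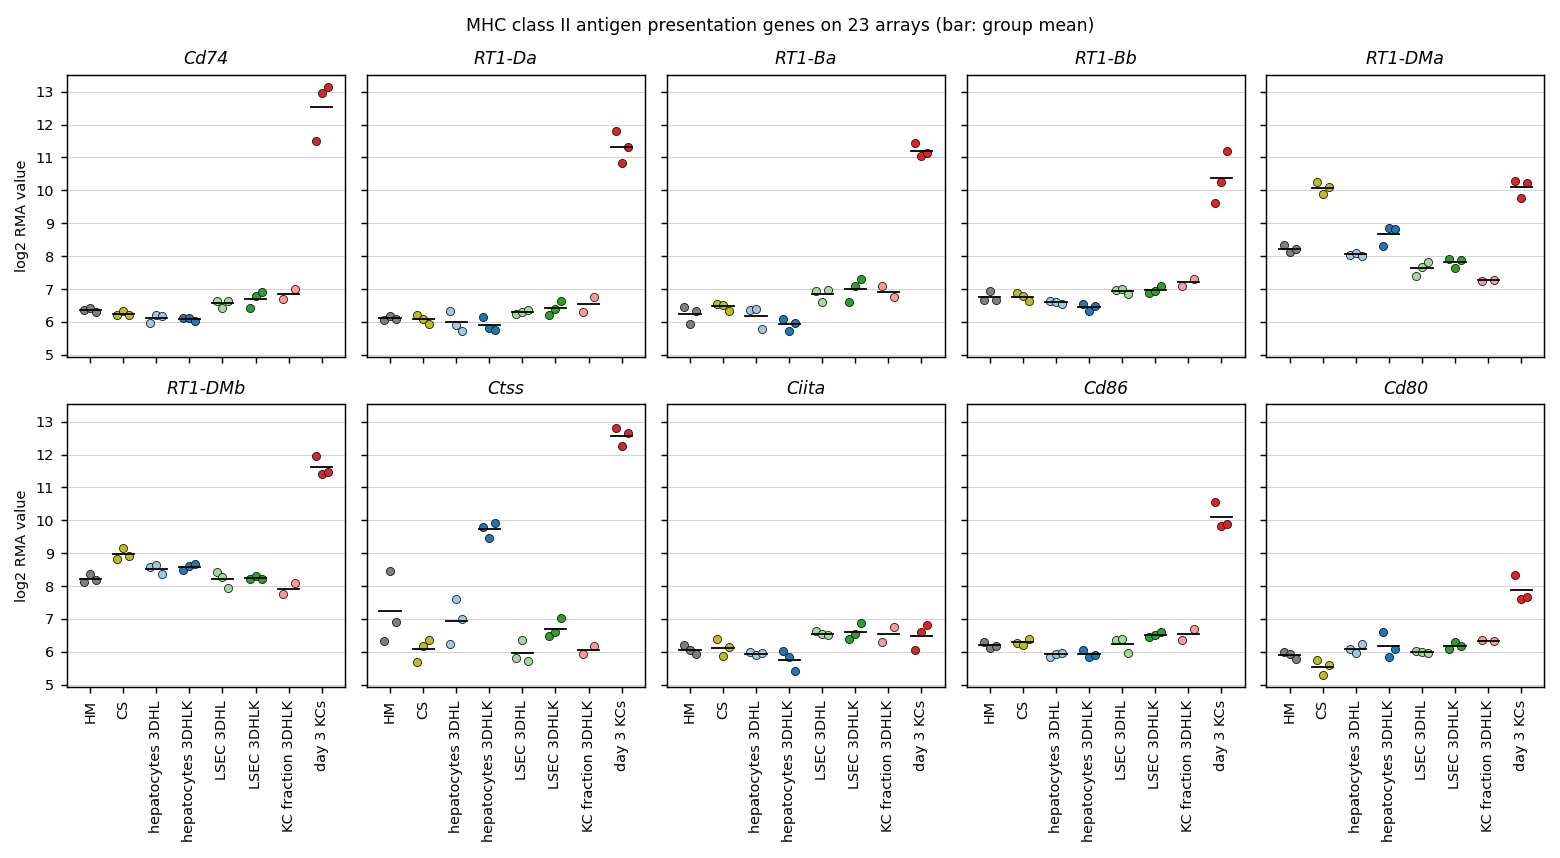
Log2 RMA value of each gene on every array, by group, with 1 point per array and a bar at the group mean. Day 3 KCs lie above all other arrays in 8 panels, RT1-DMa is as high in CS, Ctss is second highest in 3DHLK hepatocytes, and the group means of Ciita lie between 5.76 and 6.6. Levels can be compared within a panel only.

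The KC fraction of the 3DHLK model was compared with day 3 KCs, with the marker and sex gene values above in view. How much RNA of the added KCs this fraction holds was not tested, so the differences are not read as changes within KCs. Of the 10 genes, 9 were called lower in the KC fraction, where 20.8% of all genes were called lower and 65.2% in either direction, and all 9 had ranges that did not overlap, as 20.7% of all genes did while lower. Of all genes 44.5% were called higher. The median difference was -3.63 for the 10 genes and 0.271 for all genes. In the same comparison all 19 macrophage markers were lower (median -5.09) and all 18 hepatocyte markers higher (median 5.23), and what part these cell types had in the class II values was not tested. The day 3 arrays are shared with the comparison above. Of all genes called, 68.2% were higher in the KC fraction, and this share was 56.7% after cyclic loess and 43.6% after centring on housekeeping genes, under which the median over all genes turned to -0.117, while the 9 calls stood under both.

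Ctss differed most, with 12.80, 12.27 and 12.66 in day 3 KCs and 5.93 and 6.18 in the KC fraction. Its difference was -6.52 (SE 0.42), a 91.9-fold lower signal with an adjusted p of 8.85e-12 in limma. Cd74 read 6.69 and 7.0 in the KC fraction, lower by 51.5-fold (-5.69, SE 0.29, adjusted p 1.26e-13). These values overlapped with those of LSECs, from 3DHL for Ctss and from 3DHLK for Cd74.

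RT1-Da read 6.31 and 6.75 in the KC fraction, RT1-Ba 7.08 and 6.76, and RT1-Bb 7.10 and 7.31. Their differences from day 3 KCs were -4.78 (SE 0.22), -4.29 (SE 0.21) and -3.15 (SE 0.25). The chaperone chains RT1-DMa, with 7.25 and 7.27, and RT1-DMb, with 7.75 and 8.09, had their lowest group means in this fraction, and they were lower than in day 3 KCs by -2.83 (SE 0.18) and -3.69 (SE 0.17). Cd86 was lower by -3.57 (SE 0.18) and Cd80 by -1.53 (SE 0.20). The largest adjusted p among these 7 genes was 7.53e-07 in limma, for Cd80.

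For Ciita the call depended on the probe set. The higher one read 6.30 and 6.77 in the KC fraction, a difference of 0.04 (SE 0.21, limma adjusted p 0.87). The second read 6.07 and 6.44, a difference of -0.64 with an adjusted p of 0.00385.

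Other genes of the pathway were lower in part. Among 11 genes of endosomal proteolysis 8 were lower and 2 higher in the KC fraction, the lower ones led by the cathepsin Ctsd (-2.66, SE 0.27) and the asparaginyl endopeptidase Lgmn (-2.25, SE 0.14). Of the higher ones, Cst3, the cathepsin inhibitor cystatin C, was higher by 1.54 (SE 0.15). Of 4 genes linked to class II turnover, 3 were lower, among them Marchf1, the ubiquitin ligase that removes class II and CD86 from the surface, which averaged 10.21 in day 3 KCs and 4.90 in the KC fraction. Of 9 further ligands of costimulation and adhesion, 5 were lower and 1 higher, with Cd83 at 11.16 against 6.21.

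Class I and interferon gamma genes were called in both directions, where 44.5% of all genes were called higher and 20.8% lower. Of 23 class I genes, 8 were higher and 5 lower in the KC fraction, and the largest step was RT1-CE5, a class I heavy chain, at 12.24 against 8.41 in day 3 KCs. Of 17 genes of interferon gamma signalling, 6 were higher and 5 lower. The receptor chain Ifngr1 averaged 12.56 in day 3 KCs and 9.27 in the KC fraction, whereas Cxcl9, a target of the pathway, averaged 7.26 and 10.92.

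**Figure D3:**
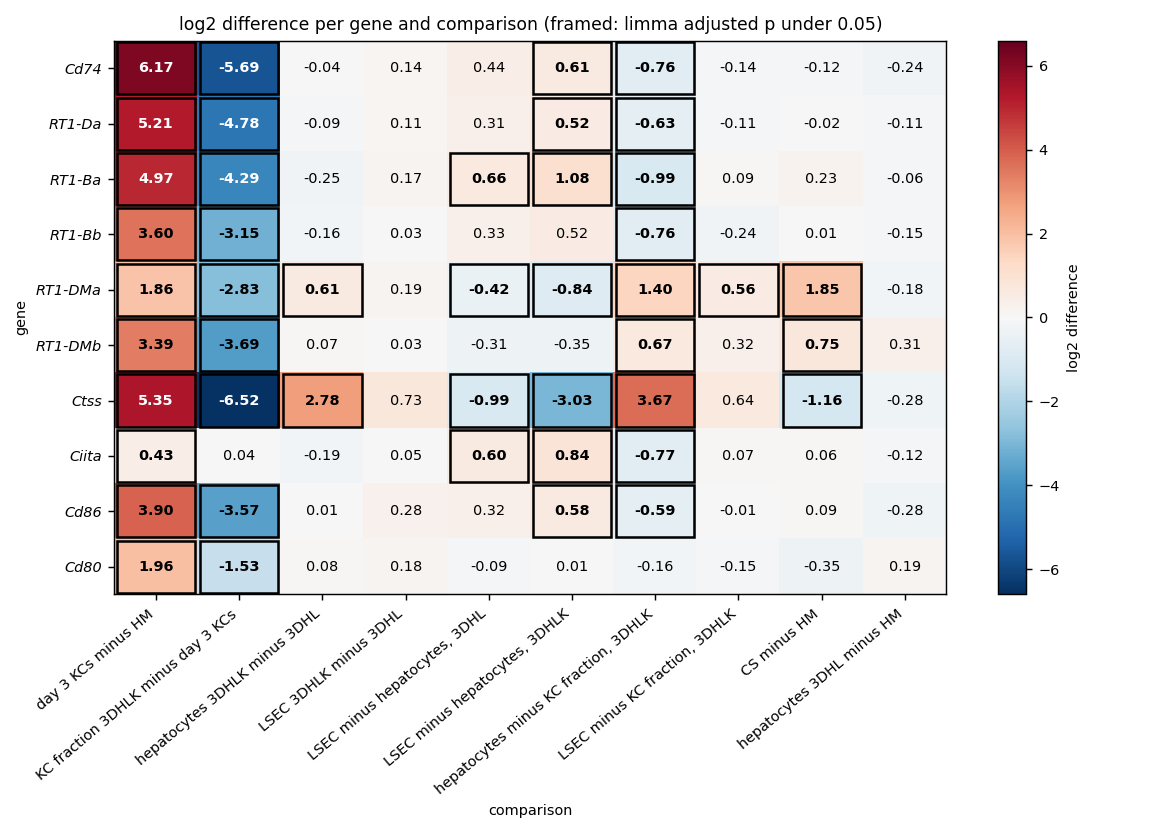
Log2 difference of each gene (lines) in each comparison (columns), with the first named group minus the second, in colour and as a number. Frames mark limma adjusted p-values under 0.05, and the comparisons with day 3 KCs hold most of the large values. Among the day 12 hepatocyte groups only Ctss, RT1-DMa and RT1-DMb carry frames.

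What hepatocytes express when KCs join the model was asked by comparing 3DHLK with 3DHL hepatocytes. Here 2 of the 10 genes were called higher and none lower, where 7.72% of all genes were called higher, 3.76% lower and 11.5% in either direction. The median difference was -0.01 for the 10 genes and -0.08 for all genes. Of all calls 67.3% were higher, and 77.8% after cyclic loess.

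Ctss read 9.81, 9.46 and 9.92 in 3DHLK hepatocytes and 6.24, 7.60 and 7.01 in 3DHL hepatocytes. The groups did not overlap, and only day 3 KCs were higher. The difference was 2.78 (SE 0.37, limma adjusted p 1.26e-05), a 6.85-fold ratio, and it was 2.42 to 3.10 under the alternatives, all of them called. RT1-DMa read 8.30, 8.86 and 8.82 against 8.04, 8.10 and 8.01, also without overlap, and 14.0% of all genes were higher without overlap. Its difference was 0.61 (SE 0.16, adjusted p 0.012), and the call was lost without 3DHLK replicate 2 (0.51, adjusted p 0.0647) or replicate 3 (0.53, adjusted p 0.0703).

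The class II chains were not called. Cd74 read 6.11, 6.12 and 6.03 in 3DHLK hepatocytes and 5.96, 6.22 and 6.19 in 3DHL hepatocytes, a difference of -0.04 with a 95% interval of -0.57 to 0.49. RT1-Da differed by -0.09 (-0.49 to 0.31), RT1-Ba by -0.25 (-0.64 to 0.14) and RT1-Bb by -0.16 (-0.63 to 0.31). The 3DHLK hepatocytes had the lowest mean of all 8 groups for Cd74 and for each of these 3 chains. Cd86 differed by 0.01 (-0.31 to 0.34) and Cd80 by 0.08 (-0.29 to 0.45).

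Of 19 macrophage markers, 12 were higher in 3DHLK hepatocytes and none was lower, and their mean was 7.91 against 6.89. Lyz2, lysozyme of myeloid cells, averaged 11.56 in 3DHLK and 9.08 in 3DHL hepatocytes, and Fcer1g, the signalling chain of Fc receptors, 9.21 and 7.02. Irf8 rose from 6.92 to 8.71 (1.79, SE 0.20, limma adjusted p 1.26e-06). Ptprc, which encodes the leukocyte antigen CD45, averaged 5.61 and 5.46. The stellate cell and fibroblast markers rose too, with 11 of 16 higher and a mean of 10.11 against 7.92. Of 21 endothelial markers 6 were higher and none lower, with a mean of 6.66 against 6.25, among them the receptors Tek (7.73 against 5.44) and Flt1 (9.51 against 7.20). The part of other cells in the Ctss value was not tested.

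A linear scale sets these values side by side. The signal of a gene in 3DHLK hepatocytes above 3DHL hepatocytes was divided by the same excess in day 3 KCs, for genes at least 2 log2 units higher in the latter. It was 12.1% for Ctss (arrays from 9.7 to 14.1%) and 16.9% for RT1-DMa (6.01 to 24.4%), which at 2.03 log2 units lay just inside that limit. Cd80, at 1.78, and Ciita lay outside it. For Cd74 it was -0.0298%, with no array above 0, for RT1-Da -0.159%, and for RT1-DMb 0.641%. The 18 macrophage markers that could be scaled had a median of 1.76% and ran from -0.13% for Clec4f to 25.7% for Lyz2, with Mrc1 at 20.9%, Cd163 at 14.6%, C1qc at 9.91% and Adgre1 at 0.535%. Eif2s3y stood at 54.1%. Of these 18 markers 14 lay under 4%, as did 6 of the 8 class II presentation genes that could be scaled. The other markers, Lyz2, Mrc1, Cd163 and C1qc, named after their values were seen, lay near or above Ctss. On the same scale above 3DHL hepatocytes, the KC fraction of 3DHLK stood at -0.0703% for Eif2s3y. Its scaled macrophage markers ran from -6.76% for Mpeg1 to 2.62% for Cd68, with Adgre1 at 0.263%. Its class II genes ran from -13.6% for RT1-DMa to 4.13% for RT1-Bb, with Ctss at -0.956% and Cd74 at 0.773%. RMA compresses low signals and probe sets saturate, so these percentages are not shares of cells.

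**Figure D4:**
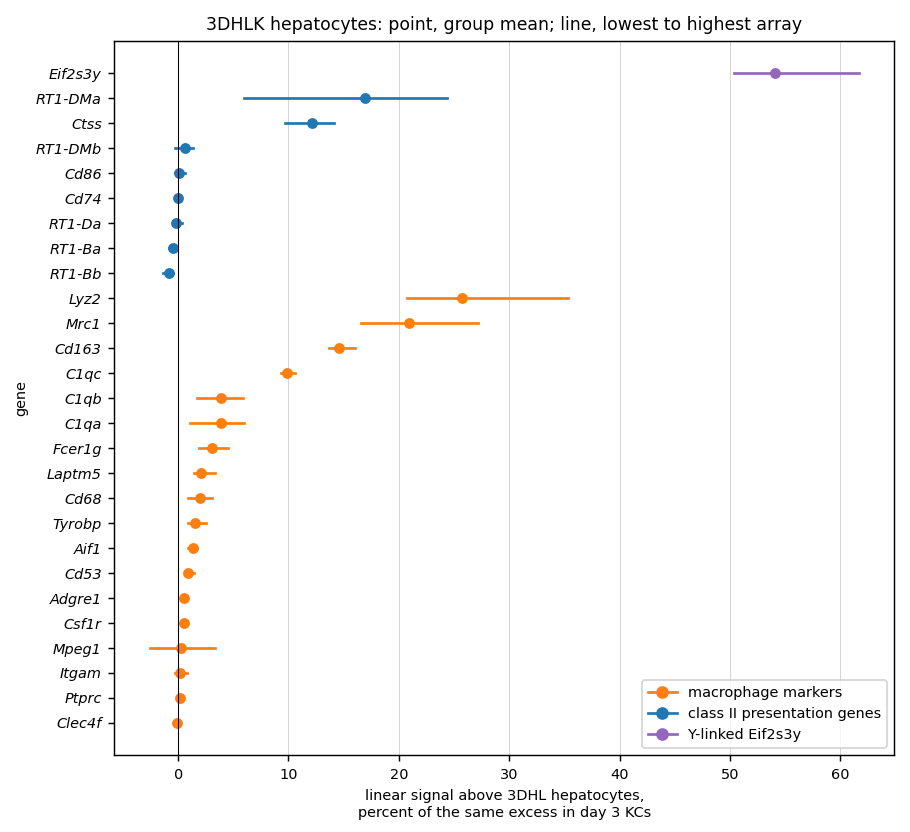
Linear signal of 3DHLK hepatocytes above 3DHL hepatocytes, as percent of the same excess in day 3 KCs, for genes at least 2 log2 units higher in day 3 KCs. Points are group means and lines run from the lowest to the highest array. Ctss (12.1%) and RT1-DMa (16.9%) lie apart from the other class II presentation genes, whose means run from -0.839 to 0.641%.

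Other pathway genes were called too, and all called costimulation, protease and class I genes were higher, where 7.72% of all genes were. Of 9 costimulation and adhesion ligands, 3 were higher, with Cd48, a ligand on leukocytes, at 7.60 against 5.06, and Tnfsf9 (5.88 against 4.47) and Vtcn1 (6.51 against 5.27) next. Of 11 genes of endosomal proteolysis only Ctsh was called, higher by 0.38 (SE 0.12). Of 23 class I genes 2 were higher, and of 17 interferon gamma genes 2 were higher and 2 lower, where 3.76% of all genes were lower.

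In LSECs none of the 10 genes was called between 3DHLK and 3DHL by limma, where 3.58% of all genes were called higher and 3.89% lower, 7.47% in all, and none had an unadjusted p under 0.05. Ctss came closest, with 6.49, 6.59 and 7.02 in 3DHLK and 5.82, 6.36 and 5.72 in 3DHL LSECs, which did not overlap. Its difference was 0.73 (SE 0.37, adjusted p 0.294), with a 95% interval of -0.05 to 1.51, and it was called when only the LSEC arrays entered the fit (adjusted p 0.0278). Cd74 differed by 0.14 (-0.39 to 0.67).

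The change from 3DHL to 3DHLK differed between the fractions in 1 of the 10 genes, where 10.3% of all genes were called, 3.51% higher and 6.81% lower in LSECs. Ctss rose by 2.04 less in LSECs than in hepatocytes (-2.04, SE 0.53, limma adjusted p 0.0146). Without 3DHL hepatocyte replicate 1 it was not called (-1.69, adjusted p 0.0553). For the other 9 genes the smallest adjusted p was 0.256, for RT1-DMa.

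LSECs and hepatocytes of the same model differed by small steps in the chains and larger ones in Ctss. In 3DHLK, 5 genes were higher and 2 lower in LSECs, where 34.7% of all genes were called higher and 25.7% lower, 60.4% in all. RT1-Ba, at 6.62, 7.08 and 7.31 in LSECs and 6.09, 5.72 and 5.97 in hepatocytes, had the largest rise, 1.08 (SE 0.19, limma adjusted p 6.43e-05), though 1 of its other probe sets gave 0.34 and was not called (adjusted p 0.0618). Ciita was higher by 0.84 (SE 0.19), Cd74 by 0.61 (SE 0.26), Cd86 by 0.58 (SE 0.16) and RT1-Da by 0.52 (SE 0.19). The groups did not overlap for these 5 genes, and 41.4% of all genes were higher without overlap. Ctss was lower by 8.17-fold (-3.03, SE 0.37) and RT1-DMa by 1.79-fold (-0.84, SE 0.16).

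Of these 5 rises, 3 were lost under another scaling. After cyclic loess the count of called genes was 4 in place of 7. Cd74 (0.42, adjusted p 0.15), RT1-Da (0.28, adjusted p 0.261) and Cd86 (0.33, adjusted p 0.107) were no longer called. Other alternatives gained calls. The count was 9 with the mean of all probe sets, with a fit to the arrays compared and without day 3 KCs. In each of these 6 genes were higher and 3 lower, with RT1-Bb now called higher and RT1-DMb lower. Of 11 measured markers of B and T cells 9 were higher in LSECs (median 0.49), where 34.7% of all genes were. These cells were not added to any culture, and whether some came along from the liver was not tested. Cd4, a marker in this list that was also high in day 3 KCs (12.91), averaged 7.05 in these LSECs and 7.41 in these hepatocytes. The interquartile range of the arrays was 2.94 to 3.08 in these LSECs and 3.19 to 3.38 in these hepatocytes. The part of this difference in the calls was not tested. The Cd74 call was also lost without any 1 of 5 arrays, which were 3DHLK hepatocyte replicates 1 to 3 (0.63, 0.63 and 0.59) and LSEC replicates 2 and 3 (0.57 and 0.51), and the RT1-Da call without 3DHLK hepatocyte or LSEC replicate 2 or 3 (0.41 to 0.53).

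In 3DHL, 2 genes were higher and 2 lower in LSECs, where 18.5% of all genes were called higher and 21.9% lower, 40.4% in all. RT1-Ba was higher by 0.66 (SE 0.19, limma adjusted p 0.00883) and Ciita by 0.60 (SE 0.19, adjusted p 0.015). The other 3 probe sets of RT1-Ba gave 0.27 to 0.42 and were not called, nor was the other probe set of Ciita (0.35, adjusted p 0.0845) or Ciita after cyclic loess (0.41, adjusted p 0.0562). Ctss was lower by -0.99 (SE 0.37, adjusted p 0.0404) with ranges that overlapped, and RT1-DMa by -0.42 (SE 0.16, adjusted p 0.0373). These calls rested on single arrays, since without 3DHL hepatocyte replicate 3 or LSEC replicate 1 only 1 gene was called, and without hepatocyte replicate 2 only 2 were. The RT1-DMa call was lost without any 1 array but LSEC replicate 3 (-0.31 to -0.45), and the Ctss call also without LSEC replicate 3 (-0.86). Of the B and T cell markers, 5 of 11 were higher in these LSECs (median 0.32).

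Within 3DHLK the KC fraction was compared with the other fractions. Hepatocytes were higher in 3 genes and lower in 6, where 25.9% of all genes were called higher and 30.6% lower, 56.5% in all. The higher ones were Ctss (3.67, SE 0.42), RT1-DMa (1.4, SE 0.18) and RT1-DMb (0.67, SE 0.17), and the lower ones ran from -0.59 for Cd86 to -0.99 for RT1-Ba. Of the 11 B and T cell markers 8 were lower (median -0.68), where 30.6% of all genes were. The interquartile range was 3.19 to 3.38 in these hepatocyte arrays and 2.71 to 2.94 in the KC fraction. What part B and T cells or the array ranges had in the class II values was not tested. Without KC replicate 2 only 4 of the 9 calls were made, and the same number after cyclic loess. Single calls were also lost without 3DHLK hepatocyte replicate 1 (Cd74), 2 (RT1-Da) or 3 (both) and without KC replicate 1 (RT1-DMb). Between LSECs and the KC fraction only RT1-DMa was called, higher in LSECs by 0.56 (SE 0.18, limma adjusted p 0.0336), where 9.73% of all genes were called higher, 5.35% lower and 15.1% in either direction. That call was lost without any 1 of 4 arrays, LSEC replicate 1 (0.51) or 3 (0.52) or KC replicate 1 (0.55) or 2 (0.57). For Cd74 the KC fraction and LSECs differed by -0.14, with an interval of -0.74 to 0.45.

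Both chains of the peptide-exchange chaperone were higher in the collagen sandwich than in HM, and no class II chain was called. Against HM, 3 of the 10 genes were called, 2 higher and 1 lower, where 11.1% of all genes were called higher, 10.7% lower and 21.8% in all. RT1-DMa read 10.25, 9.89 and 10.09 in CS and 8.35, 8.11 and 8.22 in HM. The CS arrays overlapped with those of day 3 KCs (10.28, 9.77 and 10.22), and the group means were 10.08 and 10.09. The difference from HM was 1.85 (SE 0.16, limma adjusted p 1.94e-08), a 3.6-fold ratio, and it was 1.76 to 1.94 under the alternatives, all of them called. Its partner RT1-DMb read 8.82, 9.16 and 8.92 against 8.11, 8.36 and 8.18, higher by 0.75 (SE 0.15, adjusted p 8.82e-04) but far under the 11.42 to 11.95 of day 3 KCs.

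Cd74 read 6.21, 6.32 and 6.20, a difference from HM of -0.12 (-0.65 to 0.41), RT1-Da differed by -0.02 (-0.42 to 0.38) and RT1-Ba by 0.23 (-0.16 to 0.63). Macrophage markers had a mean of 6.66 in CS and 6.88 in HM and 1 of 19 called in each direction. Of 16 markers of stellate cells and fibroblasts 11 were higher, with means of 8.52 and 7.41, and 8 of 18 hepatocyte markers were higher. What part cell content had in the RT1-DMa and RT1-DMb values was not tested. Of 17 interferon gamma genes 1 was higher and 5 were lower, with the guanylate-binding proteins Gbp4 at 4.12 against 7.88 and Gbp2 at 6.59 against 8.84. Of 11 genes of endosomal proteolysis 5 were lower, led by Ctsc (-0.63, SE 0.12) and Lgmn (-0.55, SE 0.12).

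Ctss was lower in CS than in HM by -1.16 (SE 0.37, limma adjusted p 0.0293), but HM varied, with 6.32, 8.45 and 6.92 against 5.69, 6.18 and 6.35 in CS. The HM array with the highest Ctss value also had the highest macrophage marker mean of its group, 7.27 against 6.61 and 6.75. Its stellate cell and fibroblast marker mean was the highest too, 8.4 against 6.37 and 7.45, and the part of either in the Ctss value was not tested. Without this HM array the difference was -0.55 (adjusted p 0.271), and the call was also lost without CS replicate 1 (-0.97) or 2 (-1.21).

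None of the 10 genes was called by limma between hepatocytes of 3DHL and HM, where 7.04% of all genes were called higher and 4.7% lower, 11.7% in all, and none had an unadjusted p under 0.05. The largest differences were 0.31 for RT1-DMb and -0.28 for Cd86 (-0.61 to 0.05) and Ctss (-1.06 to 0.50).

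**Figure D5:**
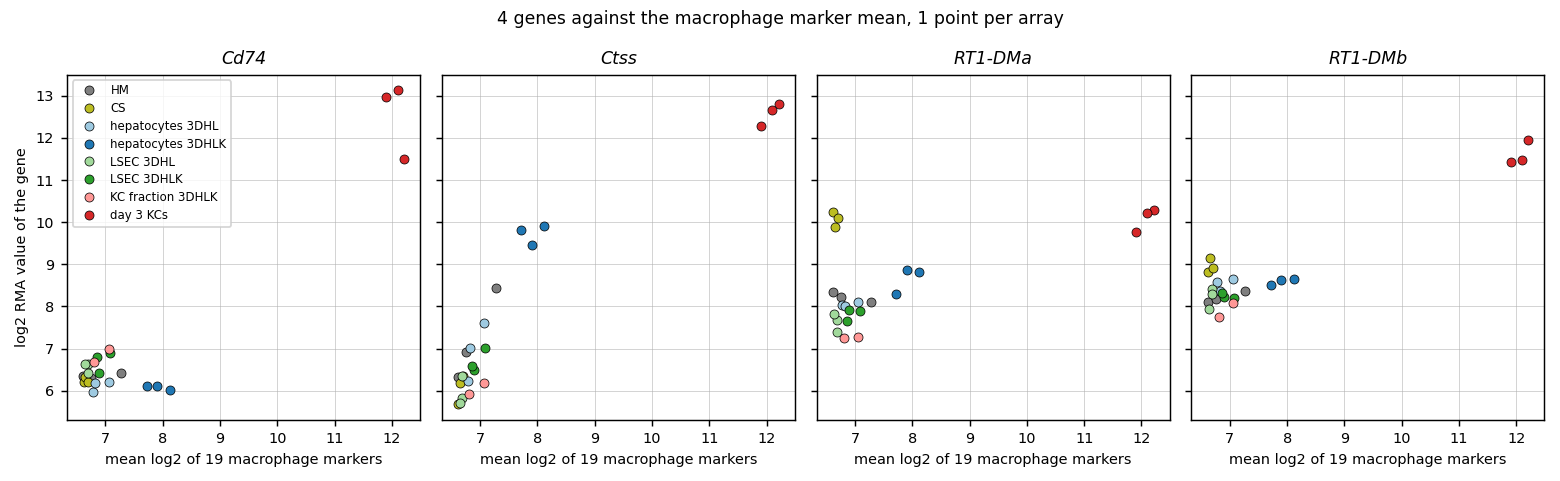
Log2 RMA value of 4 genes against the mean log2 value of 19 macrophage markers, with 1 point per array coloured by group. Cd74 is high only in day 3 KCs, Ctss also in the 3DHLK hepatocytes at a macrophage marker mean of 7.72 to 8.12, and RT1-DMa in the CS arrays at 6.62 to 6.70.

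The genes most like Cd74 across the 8 group means, by Pearson correlation and as a description over points that share arrays and scaling, were RT1-Da (r = 0.9999), Plek (0.9995), Il1a (0.9994), Tmem26 (0.9991) and Il1b (0.999). All of these were high in day 3 KCs alone, Il1b for example at 12.78 against 5.53 to 6.32. Among the members r with Cd74 was 0.997 for RT1-Bb and Cd86, 0.992 for RT1-Ba, 0.951 for Cd80 and 0.931 for RT1-DMb, but 0.807 for Ctss, 0.539 for RT1-DMa and 0.397 for Ciita. Without day 3 KCs, over 7 means that spanned 6.09 to 6.84 for Cd74, the nearest genes were Ccr2, Crx, Prok2, Lcn1 and RT1-Da (0.9964 to 0.9924). There r with Cd74 was 0.961 for RT1-Bb, 0.931 for Ciita, 0.921 for RT1-Ba, 0.909 for Cd86 and 0.442 for Cd80. It was -0.596 for Ctss, -0.636 for RT1-DMa and -0.781 for RT1-DMb. Many other genes had r as high, since RT1-Bb was at rank 377 and Ciita at rank 1121.

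For Ciita the nearest over 8 means were Tenm3, Dnajc5, Cntn1, C5h1orf185 and Cd164l2 (0.9945 to 0.9872), and over 7 means Nrap, Tmem229a, Med19, Zfpm2 and Wnt1 (0.9986 to 0.9974). The group means of Tenm3 spanned 3.97 to 4.26, a range as narrow as that of Ciita or narrower.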

How the data were processed

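RNA of the 8 groups was amplified and hybridised by the authors to Affymetrix Rat Genome arrays, and the deposited table holds log2 values per probe set that the authors obtained with RMA (background correction, quantile normalisation over arrays, summarisation) (version: not given in the sources used here). These values entered the tests unchanged. It holds no detection calls, so signal over background could not be read, and precision is limited by the number of arrays. Array medians were 7.41 to 7.53.

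Of 31099 probe sets, 57 were controls, 20826 named 1 gene, 436 several and 9780 none here, and only the probe sets of 1 gene were used. For each of 14217 genes the probe set with the highest mean was taken. Groups came from the labels. The tests used limma 3.58.1 under R 4.3.3 (lmFit with 8 group means on 23 arrays, contrasts, eBayes), with Benjamini-Hochberg adjustment over all genes at 0.05, tested on simulated data. Plots were made in Python 3.11.15 (matplotlib 3.10.9).

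The members and lists were chosen with earlier results of these data known. All members were named. Other pathway lists gave at most the 4 called genes with the largest change in a comparison, marker lists their mean and 2 highest genes, and Cd74 and Ciita their 5 most correlated genes. Adgre1, Ptprc, Clec4f, Mrc1, Cd163, C1qc, Rfx5, Nfya, Nfyb, Tek, Flt1, Ctsh, Lyz2 and Fcer1g, where outside that rule, were singled out after their values were seen. The alternatives were the mean of all probe sets, each other probe set of a member, a fit to the arrays compared, a fit without day 3 KCs, a replicate block, a filter at the 30th percentile, cyclic loess, centring on housekeeping genes, a trended robust prior, and leaving out each array in turn. Promoter windows and gene positions are RefSeq's for GRCr8, and RT1-DMb and Ciita have no window in that table.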

Additional observations from a re-analysis of the deposited data

Results flagged for a closer look

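The step in Ctss from the 3DHL to the 3DHLK model differed between LSECs and hepatocytes. The difference of the 2 changes was -2.04 on the log2 scale (SE 0.53, limma adjusted p 0.0146). Ctss rose from a mean of 6.95 to 9.73 in hepatocytes and stood at 5.97 and 6.70 in LSECs. It was the 1 gene called of the 10, where 10.3% of all genes were called. Without 3DHL hepatocyte replicate 1 the difference was -1.69 and was not called (limma adjusted p 0.0553). The part of other cells in the Ctss values was not tested.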

How the results depend on the processing

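The number of the 10 genes called in the KC fraction against day 3 KCs was 9 in every alternative except the filter at the 30th percentile, which kept only Cd74, Ctss, RT1-Bb, RT1-DMa and RT1-DMb and so gave 5. The same filter gave 5 in place of 10 for day 3 KCs against HM, 2 in place of 4 for LSECs against hepatocytes in 3DHL, 4 in place of 7 in 3DHLK, and 5 in place of 9 for 3DHLK hepatocytes against the KC fraction. Cyclic loess gave 2, 4 and 4 for these last 3 comparisons. A fit to the arrays compared gave 7 for LSECs against hepatocytes in 3DHL, 1 in place of 0 for LSECs of 3DHLK against 3DHL, 2 in place of 1 for LSECs against the KC fraction, and 2 in place of 0 for 3DHL hepatocytes against HM. Without day 3 KCs, LSECs against hepatocytes in 3DHL gave 8. In 3DHLK that comparison gave 9 in place of 7 without day 3 KCs. The mean of all probe sets and a fit to the arrays compared also gave 9 there. The cause was not tested where the filter does not set it.

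Leaving out 1 array at a time gave 9 to 9 called genes for the KC fraction against day 3 KCs, 9 to 10 for day 3 KCs against HM, 1 to 2 for 3DHLK against 3DHL hepatocytes, 0 to 0 for LSECs of the 2 models, 0 to 1 for the difference of these changes, 1 to 4 and 5 to 7 for LSECs against hepatocytes in 3DHL and 3DHLK, 4 to 8 and 0 to 1 for hepatocytes and LSECs against the KC fraction, 2 to 3 for CS against HM and 0 to 0 for 3DHL hepatocytes against HM. Where this left 1 KC array, that array was assumed to vary like the others.

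Same-numbered arrays deviated from their group means with correlations of -0.348 to 0.335 over genes. Arrays with different numbers were not compared in this way, so these values cannot decide whether the replicate numbers pair the arrays. With the replicate number as a block, LSECs against the KC fraction gave 0 called genes in place of 1. For single genes 1470 values kept their direction and side of the threshold, 68 lost and 22 gained a call, and 1 changed sign. That was the second Ciita probe set, with -0.64 in the KC fraction against day 3 KCs. The brightest gave 0.04 there and was not called.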
